A study of Mus musculus with 3 samples.

Results

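PPARg and 8 genes of lipid handling were followed through mouse peripheral blood (PB) leukocytes: the nuclear receptor gene Pparg, the uptake genes Cd36, Lpl and Fabp4, the activation and storage genes Acsl1 and Plin2, and the efflux genes Abca1, Abcg1 and Apoe. These 9 members are a fixed list of symbols, taken from the 32285 features of the count tables, and each matched exactly 1 feature. The question put to them was whether the lipid genes move with Pparg in non-classical monocytes (ncMonos), the patrolling monocytes of blood, when leukemia develops.

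The samples were scRNA-Seq libraries of PB from wild-type (WT) Balb/C mice, 1 library from naive mice, 1 at day 11 (D11) and 1 at day 14 (D14) after transplantation of BBC2 SCLL cells. SCLL is stem cell leukemia and lymphoma syndrome, a disease driven by FGFR1 fusion genes, and the labels call D11 the intermediate and D14 the late stage. The naive mice carried no transplant; all 3 libraries came from blood whose red cells had been lysed and whose dead cells had been removed, and the study's methods give the hosts as young female mice. BBC2 is a single transplanted line. The labels do not give the number of mice behind each library, so a condition and its library cannot be told apart, no test between conditions was possible, and every interval below is a 95% interval for counting error only.

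PPARg is a ligand-activated nuclear receptor that binds DNA together with RXR and switches on genes of fatty acid uptake and storage; it is best known from adipocytes and from lipid-laden macrophages. The related LXR receptors sense oxysterols and switch on genes that carry cholesterol out of the cell. Cd36 takes up fatty acids and oxidized lipoprotein, Lpl releases fatty acids from lipoprotein particles, Fabp4 carries them inside the cell, Acsl1 activates them to acyl-CoA, Plin2 coats the lipid droplets in which they are stored, and Abca1, Abcg1 and Apoe pass cholesterol to lipoprotein particles.

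In ncMono-like cells the lipid genes did not all go the way of Pparg. Pparg was 1.33-fold lower in the D14 library than in the naive library, while Cd36, Plin2 and Apoe were 2.18-, 2.30- and 5.12-fold lower. Lpl went the other way and was 3.01-fold higher. The ratio of Fabp4 was nearest to that of Pparg, at 1.18-fold lower, and Acsl1 was 1.38-fold higher. Abcg1 and Abca1 had ratios whose intervals held no change.

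Among the promoters of the members, 2 windows are shown, those of Cd36 and Plin2. They hold the 6-letter core of nuclear receptor sites, AGGTCA, here on the reverse strand, and no more than a single annotated exon base. Pparg windows with the core were left out because they held more exon bases. Cd36 and Plin2 are both textbook PPARg targets and were both more than 2-fold lower at D14, but their ratios played no part in the choice. The windows are the bases before the RefSeq transcription start, from the GRCm38.p6 table, read 5′ to 3′ on the gene's strand, with the core in capitals as TGACCT; a single base inside the annotated exon was removed from the Plin2 window.
Cd36, chr5:17835897-17836146, minus strand: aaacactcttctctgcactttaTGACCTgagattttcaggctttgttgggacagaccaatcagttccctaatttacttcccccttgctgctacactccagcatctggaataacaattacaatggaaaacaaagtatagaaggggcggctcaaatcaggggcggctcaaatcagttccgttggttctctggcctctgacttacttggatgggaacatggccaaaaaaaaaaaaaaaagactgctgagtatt
Plin2, chr4:86670061-86670309, minus strand: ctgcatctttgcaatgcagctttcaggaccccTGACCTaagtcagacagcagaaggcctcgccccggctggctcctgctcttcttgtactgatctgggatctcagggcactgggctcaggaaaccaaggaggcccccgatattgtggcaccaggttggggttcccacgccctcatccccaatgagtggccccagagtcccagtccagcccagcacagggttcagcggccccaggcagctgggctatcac

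The Cd36 core ends 223 bases before the listed start of Cd36, and the Plin2 core 213 bases before that of Plin2. The bases after the listed Cd36 start were not found near the start of any annotated Cd36 transcript, whereas those of Plin2 were. The Cd36 window also lies inside the annotated gene, which spans bases 17781690 to 17888801. Of the 9 members, 6 were matched in the table (Pparg, Cd36, Apoe, Abca1, Plin2 and Acsl1), with 11 windows of 250 bases. The core AGGTCA, searched on both strands, was found in 4 of these windows, 2 of them in Pparg itself, and in 14% of all 32851 windows. The direct repeat bound by PPAR with RXR, AGGTCANAGGTCA, was in 0 of the 11 windows and in 0.0335% of all, and that bound by LXR with RXR, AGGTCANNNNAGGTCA, was in 0 of 11 and in 0.0152% of all. Both repeats contain the core. A match is a match of letters only. Only the exact letters of each repeat were searched, and variant forms were not. With shares this low among all windows, 0 of 11 was the likely count in any case. It does not show whether the members hold such sites.

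Cell classes were drawn by marker gates. Barcodes were kept if they held 200 genes or more and no more than 10% mitochondrial unique molecular identifiers (UMIs, each a counted RNA molecule), and a kept barcode was placed in a class when at least 3 markers of that class had a UMI and the share of the list found was at least 2 times the share of every other list. Kept barcodes numbered 3811 (naive), 4567 (D11) and 4414 (D14), of which 10.3%, 13.6% and 31.8% were in no class, and hemoglobin genes took between 11.2% and 55.9% of each library's UMIs. The ncMono-like class held 116, 187 and 609 cells with median depths of 7758.5, 7819 and 9289 UMIs and 911010, 1634167 and 6218413 UMIs in all. The classical monocyte class (cMono-like) held 108, 191 and 74 cells with medians of 12795, 13356 and 20390.5 UMIs. Of the kept barcodes 3 to 5 were shared between any 2 libraries, and 0 of those were shared ncMono-like barcodes.

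The marker lists below are those of the gate. High ncMono and low other sums therefore follow from the gate and are no check of the label. All 8 ncMono markers (among them Ace, Treml4, Spn and Cd300e) had UMIs in ncMono-like cells of every library, with summed levels of 3558, 4366 and 3620 CPM (UMIs of a gene or list scaled to 1000000 UMIs of the class). The cMono markers summed to 218, 205 and 104 CPM in the same cells and the neutrophil markers to 175, 156 and 210 CPM. Of the 8 tissue macrophage markers, 0 had a UMI in the naive or D11 ncMono-like cells; at D14 the complement genes C1qa, C1qb and C1qc were still at 0 while 3 markers had UMIs, and Marco, a scavenger receptor, stood at 15.0 CPM. The part of these other markers in the results was not tested.

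Pparg was highest in ncMono-like cells. Its level was 858 CPM [799 to 921] in the naive, 747 CPM [706 to 790] in the D11 and 647 CPM [627 to 668] in the D14 ncMono-like cells. The order was the same as the order of the libraries in time, and with plain CPM neighboring intervals did not overlap. The ratio of D11 to naive was -0.20 [-0.33 to -0.07] on the log2 scale and that of D14 to naive -0.41 [-0.52 to -0.30]. With TMM factors, which raised the D11 ratios of all genes in this class by 0.106, the D11 value was -0.09. That shift is larger than the 0.07 between the D11 interval and no change, so with TMM factors the D11 ratio held no change. Over all other settings the D14 value ran from -0.42 to -0.23.

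The share of cells with Pparg differed less than its level. At full depth at least 1 Pparg UMI was found in 89.7% [82.6 to 94.5] of the naive cells, in 88.2% [82.7 to 92.5] of those at D11 and in 89.5% at D14. After thinning each cell to 2000 UMIs the shares were 69.9%, 64.5% and 61.5%, with intervals that overlapped from 60.6 to 65.4%. Thinned shares, here and for the other members, come from 1 random draw, and their intervals do not cover the spread between draws. T-like cells, given for comparison, had a UMI in 0.392%, 1.46% and 0.909% of cells at full depth, with median depths of 9015.5, 7090.5 and 7611 UMIs. After thinning, 0.0785%, 0.373% and 0 of them had one. Whether these UMIs were background was not tested. The 10% of ncMono-like cells with the most Pparg held 30.1%, 30.6% and 30.7% of its UMIs, a spread that was nearly the same in the 3 libraries.

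In the other gated classes Pparg was far lower. cMono-like cells had 14.6, 8.41 and 6.64 CPM, from 20, 21 and 10 UMIs, and the naive interval [8.91 to 22.5] lay apart from the next class. Neutrophil-like, mature B-like, T-like, NK-like, pro-B-like and erythroid-like cells had 0 to 6.82 CPM. The pro-B-like class carries the early B markers of the BBC2 leukemia and its Pparg level at D14 was 0.652 CPM. Kept barcodes in no class had 69.2, 38.2 and 14.3 CPM in the naive, D11 and D14 libraries, from 234, 273 and 391 UMIs. Part of the Pparg UMIs of each library thus lay outside the gates.

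**Figure D1:**
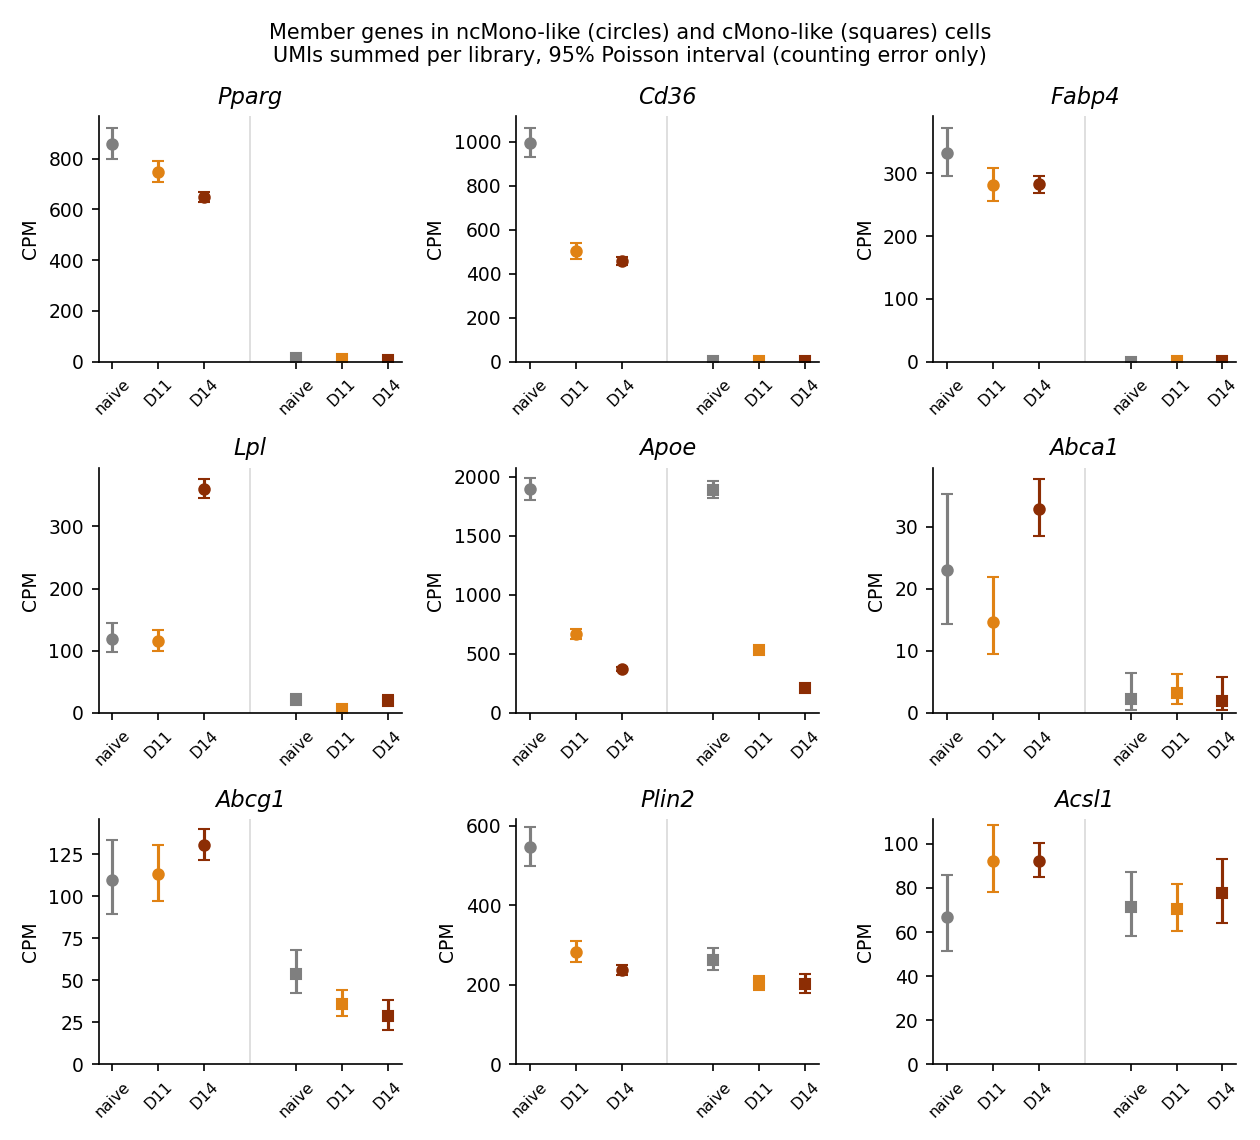
Level of each member (CPM, vertical axis from 0) in ncMono-like cells (circles) and cMono-like cells (squares) of the naive, D11 and D14 libraries; points are UMIs summed over all cells of the class in 1 library and bars are 95% Poisson intervals. Pparg, Cd36 and Fabp4 are near 0 in cMono-like cells, Apoe descends in both classes, and Lpl stands out at 361 CPM in D14 ncMono-like cells.

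Of the uptake genes, Cd36 was lower in both leukemic libraries, Fabp4 was little below naive in both, and Lpl was higher at D14 alone. Cd36, the fatty acid and scavenger receptor, was at 997 CPM [933 to 1064] in naive ncMono-like cells, 503 CPM [469 to 539] at D11 and 457 CPM [440 to 474] at D14. Nearly all of the difference was already there at D11, at a log2 ratio of -0.99 [-1.12 to -0.85], which is 1.98-fold and so just short of the 2-fold mark used here. The D14 value was -1.13 [-1.23 to -1.02]. The share of cells with a Cd36 UMI at 2000 UMIs a cell was 74.3% [65.3 to 82.1] in naive against 48.9% [41.5 to 56.3] at D11 and 51.6% [47.5 to 55.6] at D14. At full depth it was 90.5%, 76.5% and 76.8%, and in T-like cells between 0 and 0.365%.

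Fabp4, the fatty acid carrier of adipocytes and macrophages, was at 333 CPM [296 to 372] in naive ncMono-like cells. It was at 281 CPM [256 to 308] at D11 and 282 CPM [269 to 296] at D14. Both log2 ratios were -0.24, with intervals of [-0.46 to -0.03] and [-0.41 to -0.06], and the D14 level was within counting error of the D11 level (log2 ratio 0.01 [-0.14 to 0.16]). Thinned shares of cells with a UMI were 40.7%, 37.6% and 37.3%, against 0 in T-like cells.

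Lpl, the secreted lipase, was at 120 CPM [98.2 to 144] in naive and 115 CPM [99.2 to 133] in D11 ncMono-like cells, which overlap. At D14 it was at 361 CPM [346 to 376], a log2 ratio to naive of 1.59 [1.31 to 1.88]. More cells held a UMI of it: the thinned share with a UMI was 16.8% [10.4 to 25.0], 15.6% [10.7 to 21.6] and 38.1% [34.2 to 42.2], and the full-depth share 32.8%, 33.2% and 63.1%. The 10% of cells with the most Lpl held 67.9%, 63.8% and 45.2% of its UMIs, so its UMIs were spread over more cells at D14. Lpl was above 98.7% of the 6105 measured genes by this ratio, and across all settings the D14 value stayed between 1.40 and 1.68.

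Of the activation and storage genes, the droplet gene Plin2 was lower and the acyl-CoA synthetase gene Acsl1 somewhat higher. Plin2 was at 546 CPM [499 to 596] in naive, 282 CPM [257 to 309] at D11 and 237 CPM [225 to 250] at D14 ncMono-like cells. Like Cd36 it had most of its difference at D11, at a log2 ratio of -0.95 [-1.14 to -0.77], and reached -1.20 [-1.35 to -1.05] at D14. Its thinned share of positive cells was 66.4%, 40.9% and 36.0%, and 1.27%, 2.61% and 0.926% in T-like cells. Its full-depth share was 95.7%, 79.1% and 83.4%, and 4.63%, 6.20% and 4.55% in T-like cells.

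Acsl1 was at 67.0 CPM [51.2 to 86.0] in naive ncMono-like cells, 92.4 CPM [78.3 to 108] at D11 and 92.3 CPM [84.9 to 100] at D14. Its log2 ratios were 0.46 at both days, with intervals of [0.03 to 0.92] and [0.08 to 0.87] that lay just above no change. The naive level rested on 61 UMIs. Thinned shares of cells with an Acsl1 UMI were 5.31% [1.97 to 11.2] in naive, 23.7% [17.7 to 30.4] at D11 and 14.4% [11.7 to 17.5] at D14. These D11 and D14 shares, from 1 draw, lay apart although the levels were alike, and the spread between draws was not measured. At full depth the shares were 35.3% [26.7 to 44.8], 49.2% [41.8 to 56.6] and 51.2% [47.2 to 55.3], and those of D11 and D14 overlapped. The thinned shares are therefore not read as a difference between D11 and D14.

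Of the efflux genes, Apoe was the member with the largest difference, and the transporter gene Abca1 rested on few UMIs. Apoe, the apolipoprotein that accepts cholesterol, was at 1895 CPM [1806 to 1986] in naive, 667 CPM [628 to 708] in D11 and 370 CPM [355 to 386] in D14 ncMono-like cells. The D11 log2 ratio of -1.51 [-1.62 to -1.40] and the D14 ratio of -2.35 [-2.45 to -2.26] were both far down the scale, the latter lower than all but 0.311% of measured genes. Its log2 ratio of D14 to D11 was -0.85 [-0.95 to -0.74], beside -0.14 [-0.25 to -0.03] for Cd36 and -0.25 [-0.40 to -0.10] for Plin2. The thinned share of cells with an Apoe UMI was 81.4% [73.0 to 88.1] in naive, 54.3% [46.9 to 61.6] at D11 and 40.3% [36.4 to 44.3] at D14. In T-like cells that share was 1.03%, 0.373% and 0.926%, and at full depth the shares in ncMono-like cells were 92.2%, 75.9% and 64.2%.

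Abcg1, which moves cholesterol to high-density lipoprotein, was at 110 CPM [89.3 to 134], 113 CPM [97.5 to 131] and 131 CPM [122 to 140] in naive, D11 and D14 ncMono-like cells. The 3 intervals overlapped, and the D14 log2 ratio was 0.25 [-0.05 to 0.57]. Abca1, which loads lipid-poor apolipoprotein, was at 23.1 CPM [14.3 to 35.2], 14.7 CPM [9.41 to 21.9] and 32.8 CPM [28.5 to 37.6], from 21, 24 and 204 UMIs. Its ratios to naive held no change at both days, at -0.65 [-1.56 to 0.27] and 0.51 [-0.14 to 1.23], and D14 was above D11 by 1.16 [0.55 to 1.83].

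Counted over the list, 1 of the 9 members was at least 2-fold different at D11 (Apoe) and 4 of 9 at D14 (Lpl higher, Cd36, Plin2 and Apoe lower). Of all measured genes, those with a mean of at least 20 CPM over the 3 ncMono-like sums, 4.39% passed 2-fold in either direction at D11 and 5.81% at D14. At D14, 3.21% of genes were that much higher and 2.6% that much lower. The median log2 ratio of the members was -0.24 at both days, beside -0.05 and 0.00 for all measured genes. All 9 members were measured in this class, and both comparisons share the naive library.

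**Figure D2:**
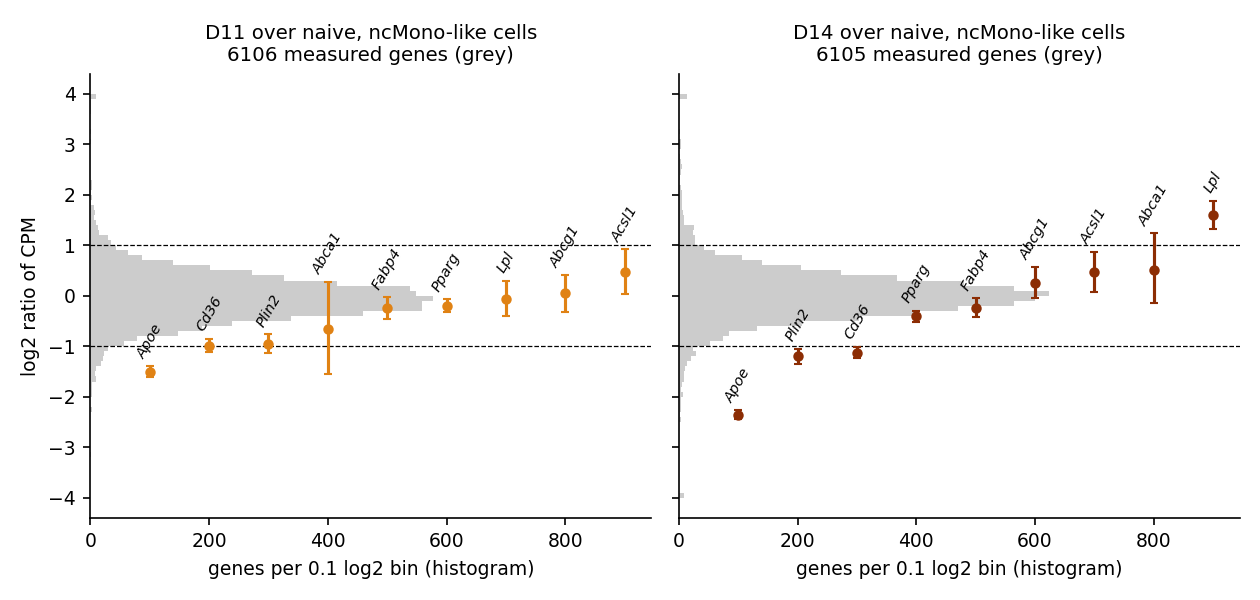
Log2 ratio of CPM (vertical axis) of each member in ncMono-like cells at D11 (left) and D14 (right) over naive, with 95% counting intervals and members ordered by ratio from left to right; the grey histogram is the same ratio for all measured genes (horizontal axis: genes per bin, values past 4 drawn at 4) and dashed lines mark 2-fold. Apoe, Cd36 and Plin2 lie at the low edge at both days, and Lpl lies at 1.59 at D14.

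The same genes were read in the cMono-like cells, the inflammatory Ly6c-high monocytes, of the same libraries. Only 4 members were measured there (Apoe, Abcg1, Plin2 and Acsl1). Of those under the minimum, Lpl had 21.2, 6.81 and 19.9 CPM, from 29, 17 and 30 UMIs, and its D11 log2 ratio was -1.64 [-2.59 to -0.72]. Apoe was as high as in ncMono-like cells in the naive library, at 1889 CPM [1817 to 1963], and was at 530 CPM [501 to 559] at D11 and 211 CPM [189 to 236] at D14. Its log2 ratios of -1.83 [-1.93 to -1.74] and -3.16 [-3.33 to -2.99] made it the only measured member past 2-fold at either day, beside 2.06% of all genes at D11 and 8.21% at D14.

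Plin2 was lower in the leukemic cMono-like cells by less than in the ncMono-like cells. It was at 263 CPM [236 to 291], 204 CPM [187 to 223] and 203 CPM [180 to 227], a D14 log2 ratio of -0.37 [-0.60 to -0.15]. Abcg1 was at 54.0 CPM [42.4 to 67.8], 36.0 CPM [29.0 to 44.3] and 28.6 CPM [20.7 to 38.5], a D14 ratio of -0.92 [-1.50 to -0.36]. That interval lay wholly below the ncMono-like interval for Abcg1, and the difference between the classes was not tested. Acsl1, at 71.5, 70.5 and 77.7 CPM, had intervals that all overlapped. Summed ncMono markers in the cMono-like cells were 201, 248 and 347 CPM, so the naive and D14 classes also differed in these. Neutrophil markers had the highest sums of the other lists there, at 328, 335 and 416 CPM, of which Mmp8 was 177 CPM at D14. Progenitor markers summed to 23.3, 77.3 and 189 CPM, of which Prtn3 was 149 CPM at D14, and dendritic markers to 62.7, 117 and 29.2 CPM. Of the tissue macrophage markers only Mrc1 had UMIs, at 38.7, 3.20 and 0.664 CPM. The part of these markers in the cMono-like values was not tested.

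Set against cMono-like cells of the same library, Pparg and the uptake genes were higher in ncMono-like cells. The ncMono-like level of Pparg was 58.8-fold [37.8 to 96.8] higher in naive, 88.8-fold [57.8 to 144] at D11 and 97.5-fold [52.9 to 203] at D14. Cd36 was 342-fold, 251-fold and 138-fold higher, from 4 or 5 UMIs in each cMono-like sum. Fabp4 had 0, 1 and 1 UMIs in cMono-like cells, and was at least 152-fold higher in naive against the floor of 3 counts per library; its ratios at D11 and D14 were 701-fold [125 to 27757] and 425-fold [76.2 to 16806].

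Lpl was 5.65-fold [3.73 to 8.84], 16.9-fold [10.3 to 29.6] and 18.1-fold [12.6 to 26.9] higher in the ncMono-like cells, and Abcg1 2.03-, 3.14- and 4.58-fold higher. Plin2 was 2.08-fold [1.81 to 2.39] higher in naive but 1.38-fold [1.21 to 1.57] at D11 and 1.17-fold [1.04 to 1.33] at D14. Acsl1 ratios were 0.94, 1.31 and 1.19, and those of Apoe 1.26 at D11 and 1.75 at D14, with an interval of [0.94 to 1.07] around equal levels in naive. In all, 6, 5 and 5 of 8 measured members were at least 2-fold higher in ncMono-like cells, beside 12.6%, 9.89% and 11% of all genes; Abca1, under the minimum for this comparison, was 10.5-fold [3.14 to 55.1], 4.58-fold [1.99 to 11.8] and 16.5-fold [5.56 to 80.5] higher, from 3, 8 and 3 cMono-like UMIs. Pparg, Cd36 and Fabp4 were under 20 CPM in the cMono-like cells of every library, as was Lpl at D11 and D14. They met the minimum, a mean of the sums compared, through the ncMono-like cells where they were high. The part of the minimum in this count was not tested. The members were not used in the gates, and the list was proposed with the ncMono pattern of Pparg known, so this count is a description.

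**Figure D3:**
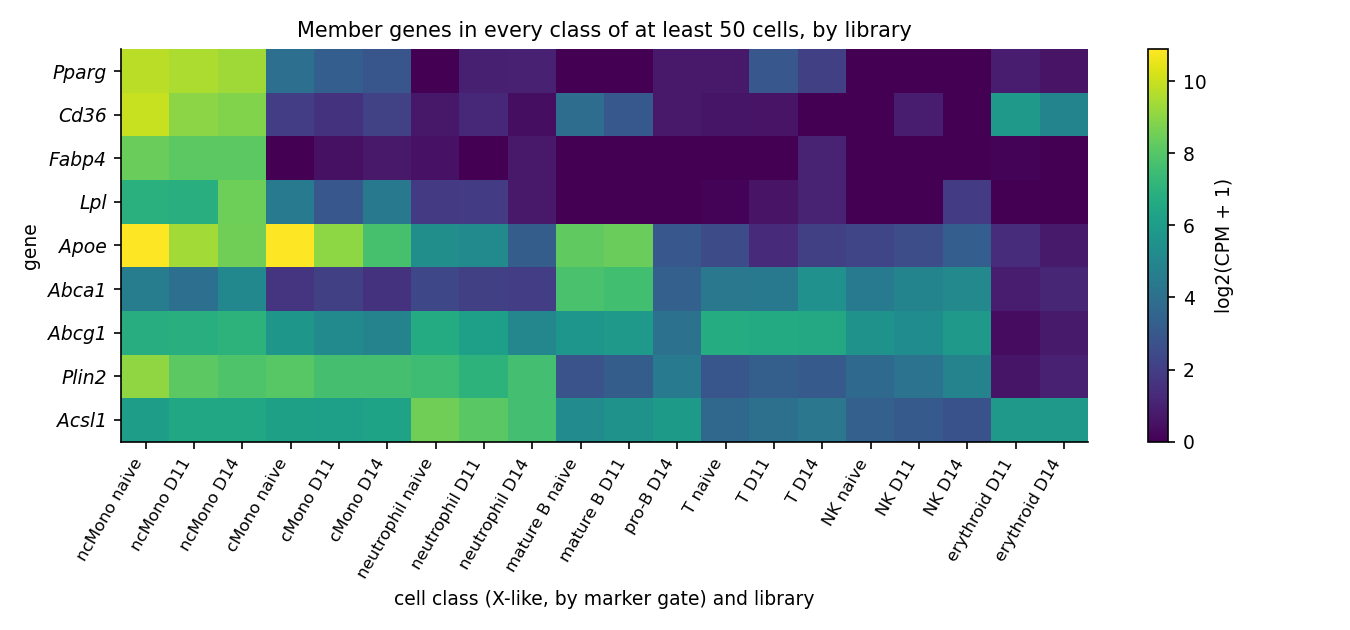
Level of each member, as log2(CPM + 1) in color, in every class and library with at least 50 cells (horizontal axis; the class names stand for X-like classes drawn by marker gates). Pparg, Cd36, Fabp4 and Lpl are highest in the ncMono-like columns, Apoe in the monocyte and mature B columns, Acsl1 most in neutrophils and Abca1 in mature B cells.

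Acsl1 and Abca1 had their highest level outside the monocytes. Acsl1 was highest in neutrophil-like cells, at 373 CPM [356 to 391] in naive, 275 CPM [262 to 288] at D11 and 198 CPM [186 to 209] at D14, 3 levels that did not overlap. There its D14 log2 ratio was -0.92 [-1.03 to -0.81], opposite in sign to that in ncMono-like cells. The next level in each library, in cMono-like or ncMono-like cells, was between 71.5 and 92.4 CPM, and these monocyte classes overlapped each other at every time.

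Abcg1 had its highest level in ncMono-like cells but was in several classes at once. In the naive library its levels in ncMono-like cells, T-like cells (107 CPM [101 to 113]) and neutrophil-like cells (104 CPM [94.9 to 114]) overlapped. In neutrophil-like cells it was at 69.9 CPM [63.5 to 76.7] at D11 and 31.9 CPM [27.5 to 36.8] at D14, a log2 ratio to naive of -1.71 [-1.96 to -1.46], while in T-like cells it was at 100 and 93.0 CPM with overlapping intervals.

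Abca1 was highest in mature B-like cells. That class had 215 CPM [196 to 234] in naive and 193 CPM [171 to 217] at D11, where the next classes had 23.1 and 29.4 CPM, and at D14 it held 34 cells and was not read. T-like cells had 19.3 CPM of Abca1 in naive and 44.4 CPM at D14, and the D14 value was above the naive one by 1.20 [0.69 to 1.68] on the log2 scale. The pro-B-like leukemic class had 9.13 CPM [6.58 to 12.3] at D14.

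Apoe was lower at D14 in neutrophil-like cells too, and at D11 it was not lower in mature B-like cells. The neutrophil-like levels were 41.1, 36.3 and 8.36 CPM, and the mature B-like levels 297 CPM [276 to 320] in naive and 342 CPM [312 to 373] at D11, a log2 ratio of 0.20 [0.03 to 0.37]. Plin2 in neutrophil-like cells was at 181 CPM [169 to 194], 130 CPM [122 to 140] and 197 CPM [186 to 209], and at D14 its level there overlapped that of cMono-like cells, which overlapped that of ncMono-like cells. Among the gated classes other than ncMono-like cells, Cd36 was highest in erythroid-like cells in the leukemic libraries, with 57.4 CPM [53.4 to 61.6] at D11 and 28.8 CPM [23.8 to 34.5] at D14. In the naive library the erythroid-like class held 49 cells and was not ranked. There the next level of Cd36 was in mature B-like cells, at 14.0 CPM [9.61 to 19.6].

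Across the 20 class and library sums of at least 50 cells, the 5 genes most like Pparg by Pearson correlation of log2(CPM + 1) were Lilra5 (0.971), Ace (0.956), Havcr2 (0.939), Fabp4 (0.937) and Ccdc192 (0.933), among 6707 genes. Ace is itself a gate marker. Of the members, Lpl (0.922) and Cd36 (0.791) followed Fabp4, then Apoe (0.618), Plin2 (0.613), Abcg1 (0.364), Acsl1 (0.253) and Abca1 (0.011). Sums of 1 library share its depth and chemistry, and the ncMono-like sums lie far from the rest, so these values describe which genes mark that class.

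Within the ncMono-like cells of 1 library, cells can be split by whether they hold a Pparg UMI. Each cell was thinned to 2000 UMIs, in 20 draws, and a member was counted when its interval lay above equal levels in more than 10 draws. Cells with and without a Pparg UMI numbered 79 and 34 in naive, 120 and 66 at D11 and 371 and 232 at D14 in the initial draw. Cd36 was the member with the steadiest ratio: the median log2 ratio of cells with over cells without Pparg was 0.36 in naive, 0.47 at D11 and 0.45 at D14, and the interval lay above 0 in 7, 11 and 18 of 20 draws.

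Fabp4 had median log2 ratios of 0.11, 0.52 and 0.39, above 0 in 0, 5 and 14 draws. By the count over draws 0 of 8 members was higher in Pparg-positive cells in naive, 1 at D11 (Cd36) and 2 at D14 (Cd36 and Fabp4), and 0 were lower. In the initial draw alone the members above equal levels numbered 0, 1 (Cd36) and 3 (Cd36, Fabp4 and Abcg1) and those below 1 (Apoe, in naive), 0 and 0. In that draw 1.59%, 3.14% and 4.72% of all measured genes had intervals above equal levels and 2.65%, 2.99% and 4.23% below them. The count over draws has no such share of all genes beside it, so it cannot be set against other genes. Lpl, which was higher at D14, was not higher in the Pparg-positive cells of D14, at a median of -0.11 over a range of -0.43 to 0.24. Its D11 median was -0.27. In naive cells the Lpl median was 1.20 over a range of 0.03 to 3.33, above 0 in 6 of 20 draws. That ratio rested on 22 and 7 UMIs in the initial draw. Apoe medians were -0.10, 0.26 and 0.06 and Plin2 medians 0.54, 0.07 and -0.07. The naive range of Plin2 was 0.02 to 1.16, above 0 in 8 of 20 draws.

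Both sides of the split had passed the gate on the same ncMono markers, so like sums of these markers are no check of the split. The summed ncMono markers were at 3608 and 3676 CPM in naive, 4538 and 4280 CPM at D11 and 3794 and 3597 CPM at D14 in cells with and without a Pparg UMI. The cMono marker sums had lower values in the cells with Pparg, at log2 ratios of -0.35, -0.47 and -0.43. No counting interval was computed for these ratios. The part of the cMono markers in the Cd36 ratio was not tested.

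**Figure D4:**
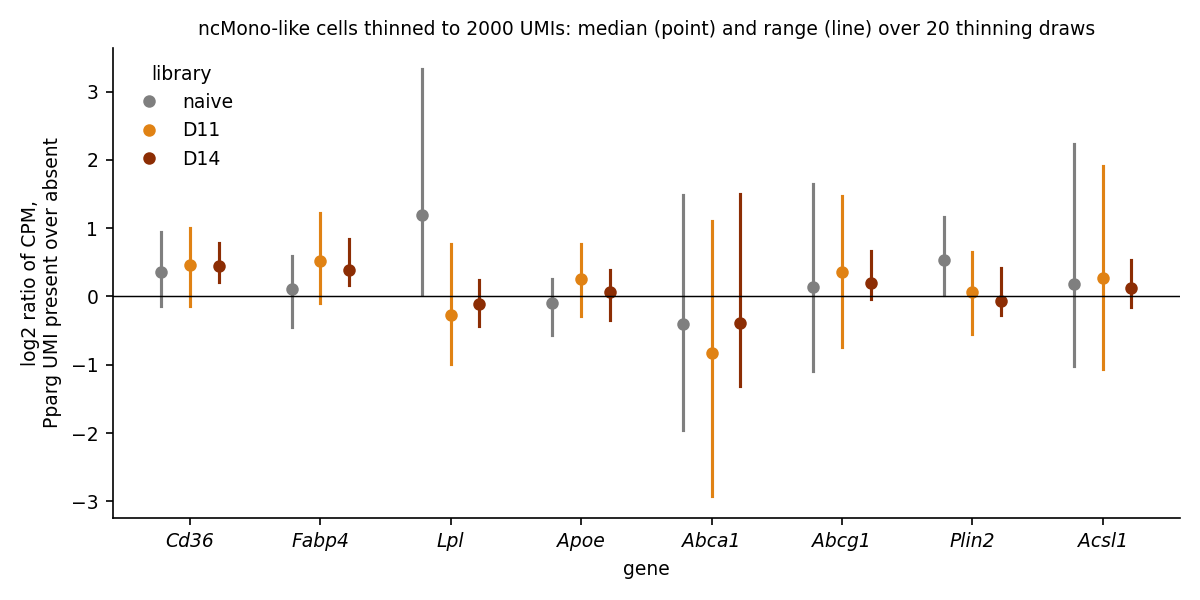
Log2 ratio of CPM (vertical axis) of each other member in ncMono-like cells with a Pparg UMI over those without, after thinning to 2000 UMIs; points are the median and lines the range over 20 thinning draws in naive, D11 and D14, and say nothing of the spread between mice. Cd36 medians are 0.36, 0.47 and 0.45, and the D14 lines of Cd36 and Fabp4 lie wholly above 0, as do the naive lines of Lpl and Plin2.

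The wider pathway was read from 8 lists of genes. Of 14 receptors and coregulators, 10 were measured in ncMono-like cells, and 3 were at least 2-fold higher at D11 and 2 at D14, none lower. Nr1h3, which encodes LXR alpha, was at 8.78, 29.4 and 38.4 CPM in naive, D11 and D14, a D14 log2 ratio of 2.13 [1.13 to 3.36] from 8 naive UMIs. Nrip1, a corepressor of nuclear receptors, was at 85.6, 180 and 249 CPM, a ratio of 1.54 [1.21 to 1.89]. Rxrb, a partner of both receptors, was at 16.5, 34.9 and 26.1 CPM, past 2-fold at D11 only. Nr1h3 and Rxrb were under 20 CPM in naive and met the minimum, a mean over the libraries, through the leukemic libraries. Nrip1 was above it in each library. Ppargc1b, a coregulator under the minimum and so not counted, was at 4.39, 6.12 and 30.6 CPM, with a D11 ratio of 0.48 [-1.31 to 2.61]. The part of the minimum in these counts was not tested. Of all measured genes 3.21% were at least 2-fold higher and 2.6% at least 2-fold lower at D14, and these shares apply to every list below. For D11 only the share in either direction, 4.39%, was counted.

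Other PPAR and RXR genes were lower in level or close to naive. Ppard was at 56.0, 39.2 and 56.8 CPM and Ppara had at most 1.10 CPM. Of the 21 PPAR target genes 10 were measured: 0 passed 2-fold at D11, and at D14 Lpl was past it upwards and Cd36 and Plin2 downwards. Of all measured genes 3.21% were past it upwards and 2.6% downwards at D14. In this list 5 of the 10 were higher and 5 lower at D14, with a median of -0.03. Cpt1a, which takes fatty acids into mitochondria, was at 142, 83.8 and 74.6 CPM (D14 log2 ratio -0.92 [-1.21 to -0.63]), and Ucp2, a mitochondrial carrier, at 403, 585 and 647 CPM (0.68 [0.53 to 0.84]). Adipocyte targets such as Adipoq, Plin1 and Cidec had 0 UMIs in the ncMono-like cells of every library.

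The LXR target list was divided. Of 16 genes 10 were measured, of which 1 was at least 2-fold higher and 1 lower at D11, and 2 higher and 2 lower at D14. Of all measured genes 4.39% passed 2-fold in either direction at D11, and 3.21% were that much higher and 2.6% lower at D14. The list medians were 0.07 and 0.21, beside -0.05 and 0.00 for all measured genes. Mylip, a ubiquitin ligase, was at 60.4, 64.3 and 131 CPM (D14 ratio 1.12 [0.72 to 1.54]), and Nr1h3 belongs to this list too. Here too Nr1h3 met the minimum only through the leukemic libraries. Pltp, the phospholipid transfer protein, was at 158, 118 and 60.8 CPM (-1.38 [-1.66 to -1.09]), beside Apoe.

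Of the 10 lipid uptake and scavenger receptor genes 7 were measured, and all 7 had values below naive at both days, with a median of -0.51 at each. Of all measured genes 54.5% and 49.8% were below naive. In the list 0 passed 2-fold at D11 and 2 at D14 (Cd36 and Msr1), beside 2.6% of all measured genes that much lower at D14. Msr1, scavenger receptor A, was at 51.6, 26.9 and 9.49 CPM, a D14 ratio of -2.44 [-3.02 to -1.86]. Its D14 level was under 20 CPM, so it met the minimum through the naive and D11 libraries. Lrp1, an endocytic lipoprotein receptor, was at 450, 316 and 293 CPM and Scarb2 at 193, 170 and 136 CPM. Scarb1 at 131, 113 and 124 CPM had ratios that held no change at D11 (-0.21 [-0.55 to 0.14]) and D14 (-0.07 [-0.35 to 0.22]), and the D11 ratio of Scarb2 did too (-0.19 [-0.47 to 0.09]). Of the genes under the minimum, Marco was detected at D14 only and Cxcl16 was at 1.10, 11.6 and 5.15 CPM, with a D11 ratio of 3.40 [0.75 to 8.78].

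Of 14 lipid droplet genes 6 were measured, 5 of them below naive at D11 with a median of -0.46 and 4 at D14 with a median of -0.06. Plin2 was the only one past 2-fold, at D14. Soat1, which esterifies cholesterol, was at 244, 170 and 172 CPM, and Lipa, the lysosomal lipase, at 105, 163 and 167 CPM. Of 16 fatty acid oxidation genes 12 were measured, 0 passed 2-fold at either day, and the medians were 0.16 and 0.05.

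Of 5 acyl-CoA synthetases 3 were measured, with values above naive at both days and medians of 0.46 and 0.66, beside 45.5% and 50.2% of all measured genes above naive. Acsl5 was at 56.0, 99.1 and 116 CPM, the only one past 2-fold (D14 ratio 1.05 [0.64 to 1.49]), and Acsl4 was at 94.4, 97.9 and 149 CPM, with a D11 ratio of 0.05 [-0.33 to 0.45]. Acsl3, under the minimum, was at 19.8, 9.18 and 9.33 CPM, with a D14 ratio of -1.08 [-1.87 to -0.23]. Of 18 cholesterol synthesis genes 3 were measured and 0 passed 2-fold; their medians were 0.02 and -0.05. In cMono-like cells the list medians at D14 were -0.19 for receptors, 0.12 for PPAR targets, -0.50 for LXR targets, -0.32 for uptake receptors, -0.22 for droplet genes, 0.27 for oxidation, 0.53 for synthetases and 0.51 for cholesterol synthesis.

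**Figure D5:**
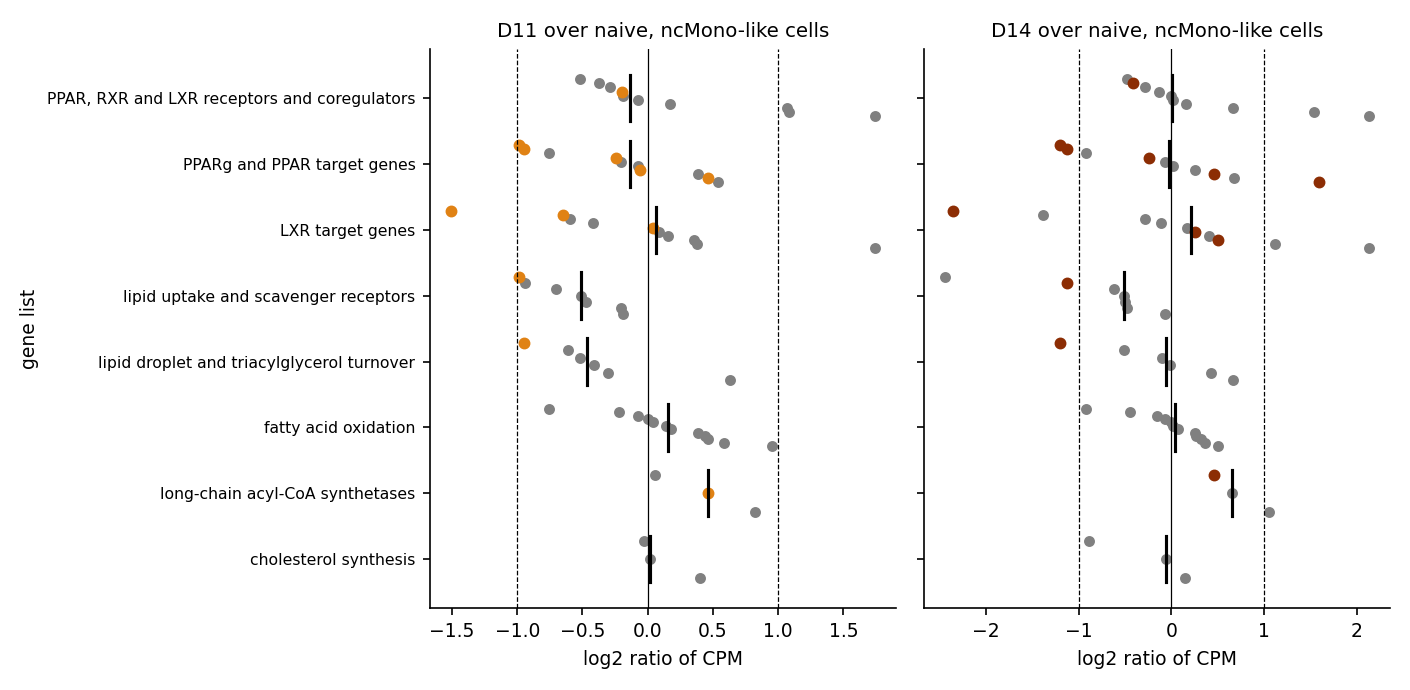
Log2 ratio of CPM (horizontal axis) of each measured gene of the 8 lists (vertical axis) in ncMono-like cells at D11 (left) and D14 (right) over naive; colored points are members, grey points the other genes, black bars the list medians and dashed lines 2-fold. The uptake and scavenger receptor points all lie left of 0 at both days, with a median of -0.51.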

How the data were processed

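The authors sequenced 10x Genomics 3′ v3 libraries and deposited filtered Cell Ranger matrices of raw counts, each value a UMI count of a gene in a barcode. The submitters' processing notes name Cell Ranger 7.1.0 and mm10, whereas the matrix headers name 5.0.1; the annotation release is not given in the sources used here. Positions are those of GENCODE vM21 on GRCm38.

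Counts were summed per class and library in Python 3.11.15 (numpy 2.4.6, scipy 1.17.1) and divided by the class total as CPM. CPM carries no correction for gene length, so levels of different genes were not ranked by size beyond printing them. Levels have exact Poisson intervals, ratios exact conditional binomial intervals, and shares Clopper-Pearson intervals; all cover counting error only. No test was made, since each condition is a single library. For ratios between libraries, measured genes had a mean of at least 20 CPM over the 3 libraries of the class. For ncMono-like over cMono-like cells the mean was taken over the sums compared. The mark for a difference was 2-fold, and an undetected level was bounded with 3 counts. The gate's 3-marker and 2-times settings were chosen after the counts were seen, and the members and gene lists with earlier results of these data known.

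Named genes are the 9 members, the 5 genes most like Pparg, and from each list the genes past 2-fold at D14 in ncMono-like cells, at most 4 by size. The other list genes given by value (among them Rxrb, Ppard, Ppara, Ppargc1b, Cpt1a, Ucp2, Lrp1, Scarb1, Scarb2, Soat1, Lipa, Acsl3, Acsl4, Cxcl16 and Marco) were chosen after their values were seen. Doublets were kept in the main values; an alternative removed the highest Scrublet scores (scanpy 1.11.5) at 0.8% per 1000 cells. In all, 12 alternatives were listed and 1 was added after the levels were seen. TMM factors came from edgeR 4.0.16 in R 4.3.3.

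The steps were tested on simulated data. For D14 over naive ncMono-like sums of 6096 genes, 50 genes at each of 4 set changes were all found in the right direction, and 98.0% to 100.0% of them lay in their intervals. Of 200 simulated cells for each of 8 classes the gate placed 98.5% of ncMono cells rightly, 65.0% of pro-B cells, the lowest, and 0 wrongly. The simulated sums were Poisson counts, and the simulated cells came from the summed profiles of cells that had passed the same gate. They held no doublets and no spread between cells of a class beyond depth. These figures therefore check the steps and do not measure how well the gate places real cells.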

Additional observations from a re-analysis of the deposited data

Results flagged for a closer look

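In 5 cases a member differed from naive in opposite directions in 2 cell classes, with both counting intervals away from no change. With 1 library per condition none of these differences between classes was tested, and no cause was tested. Values and intervals are log2 ratios of plain CPM to naive, unless TMM factors are named.

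At D14 Lpl was higher in ncMono-like cells (1.59) and lower in neutrophil-like cells (-1.92), where it rested on 12 naive and 4 D14 UMIs. Acsl1 was higher in ncMono-like and lower in neutrophil-like cells at both days, at 0.46 and -0.44 at D11 and at 0.46 and -0.92 at D14. Apoe at D11 was higher in mature B-like cells (0.20) and lower in cMono-like cells (-1.83), and its ncMono-like value was -1.51.

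Pparg at D11 was higher in T-like cells (3.31) and lower in ncMono-like cells (-0.20). With TMM factors the ncMono-like value was -0.09. The plain interval ended at -0.07 and the TMM shift was 0.106, so with TMM factors this ratio held no change. The T-like value came from 14 UMIs in 4 of 274 cells, 9 of them in 1 cell, against 8 UMIs in 5 of 1274 naive cells. Of the 4 cells, 3 also held a UMI of an ncMono marker, as did 69.3% of the other T-like cells at D11.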

How the results depend on the processing

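Each count and log2 ratio was recomputed under 12 listed alternatives and 1 added after the levels were seen, which leaves out cells with a UMI of the dendritic or tissue macrophage lists. Of 686 log2 ratios under alternatives, 645 moved by less than their counting interval and 41 by more. Of those past 2-fold 0 changed sign, but some smaller ones did. Without cells with a neutrophil-list UMI, the D11 ratio of Abcg1 in cMono-like cells was 0.33 in place of -0.58. The D11 ratios of ncMono-like over cMono-like cells were then -0.68 in place of 0.33 for Apoe and -0.42 in place of 0.39 for Acsl1. That setting left 13 cMono-like cells at D11. Of 107 counts, 90 stayed within 1.5 times. In ncMono-like cells the D14 count stayed at 4 of 9 under all of them, and the counts of ncMono-like over cMono-like cells stayed within 1.5 times.

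The D11 count in ncMono-like cells was 2 in place of 1 with the mean of per-cell CPM and without cells with a neutrophil-list UMI, where Cd36 came to -1.29. In cMono-like cells the count of 1 became 2 at D11 and at D14 with a minimum of 5 CPM, with no minimum and without dendritic- or macrophage-list cells; at D14 it was 2 with a stricter barcode filter (500 genes or more, no more than 5% mitochondrial) and 3 without neutrophil-list cells. That setting left 13, 13 and 2 cMono-like cells and 43, 70 and 101 ncMono-like cells. The Pparg split was the least settled: with 1000 UMIs its counts were 0 at D11 and 1 at D14, with 4000 UMIs 2 in naive and 2 at D11, and without thinning, when deeper cells more often hold any given UMI, 3, 2 and 6. The cause of these moves was not tested, and 34 ratios could not be given because a sum was at or under the floor. No share of all genes stands beside the split counts or the other changed counts given here. A lower minimum, or none, also takes in more members and more genes with few UMIs. These changed counts therefore cannot be set against other genes.

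No paired analysis was possible because each condition is 1 library, and leaving out a replicate was not possible for the same reason. Depth limits Abca1 against naive in ncMono-like cells, and Pparg, Cd36 and Fabp4 in cMono-like cells, where differences from naive were not detectable.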
